A study of Mus musculus with 12 samples.

Results

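The comparison set microglia co-cultured with regulatory T (Treg) cells against microglia cultured without stimulation, the control. Both groups were mouse primary microglia, macrophages of the brain and spinal cord taken into culture, with 3 libraries each, so that 6 of the 12 libraries of the study were used. The study followed Treg cells and microglia after spinal cord injury, and this comparison asked how Treg cells change the microglia. Every gene of the deposited microglia table with a mean of at least 1 FPKM over the 6 libraries was kept, which left 1529 of 2186 genes, and 657 genes lay below that limit. FPKM is a fragment count divided by the length of the transcript and the size of the library, so levels can be set side by side between genes. No agent other than the Treg cells separates the groups in the labels. The strain, sex and age of the mice, the source and state of the Treg cells, the length of the co-culture and the way the cells were parted afterwards were not stated in the sources. Nor do the labels say whether libraries came from separate cultures, so a p-value measures how far these libraries spread, and that spread may be technical.

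Microglia survey the nervous tissue, clear debris and present antigen, and they change their gene expression with the signals around them. Interferon gamma, a cytokine of T cells, acts through the kinases JAK1 and JAK2 and GAS elements of promoters, and type I interferons act through a complex with STAT2 and IRF9, which binds the longer ISRE. Interleukin 4 and interleukin 13 drive another program in macrophages, called alternative activation, with arginase and tissue transglutaminase among its products. Treg cells restrain other immune cells and can release mediators of repair. Contact and soluble signals both operate in a shared culture, and the labels give no group that separates them.

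The authors had already selected the genes of this table for a change between these libraries: in the authors' deposited table the smallest log2 fold change was 1.0006 in size and the highest Q value 0.0497. A count of changed genes or a shared direction is therefore no independent evidence, and genes without a row are not analysed here. All 1529 kept genes (100%) passed limma at a Benjamini-Hochberg adjusted p under 0.05, with adjusted p from 9.26e-09 to 0.0215, and in all of them the co-culture and control libraries did not overlap. Of these genes, 817 (53.4%) were higher and 712 (46.6%) lower in co-culture. Log2 fold changes are co-culture over control on the log2(FPKM + 1) scale, where low genes appear to change less than they do. Each rests on 3 libraries a side. A rise or fall given as a -fold value is instead the ratio of the group mean FPKM, without the added 1. The log2 and -fold values can therefore rank low genes differently. The median was 0.74 over all kept genes, 1.32 among the higher and -1.26 among the lower ones. Large rises were more frequent than large falls, with 58 genes at a log2 fold change of at least 4 and 2 genes at -4 or below. The higher genes summed to 109297 FPKM in co-culture and 36286 FPKM in control, and the lower genes to 7363 FPKM in co-culture and 23524 FPKM in control. Scaling all libraries to equal totals over the table shifted single genes by a median of -0.84, left a median of -0.11 and split the calls into 533 higher and 731 lower, 42.2% higher. Quantile normalization shifted single genes by a median of -0.26 and gave 722 higher and 702 lower, 50.7% higher. Gene lists overlap, and 81 of their 430 kept genes stand in more than one. Gene list counts below are of the values as deposited, and the direction of a named gene held under both scalings unless its sentence says otherwise. List counts stand beside the shares of higher genes over all kept genes: 53.4% as deposited, and 42.2% of calls with equal totals.

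**Figure D1:**
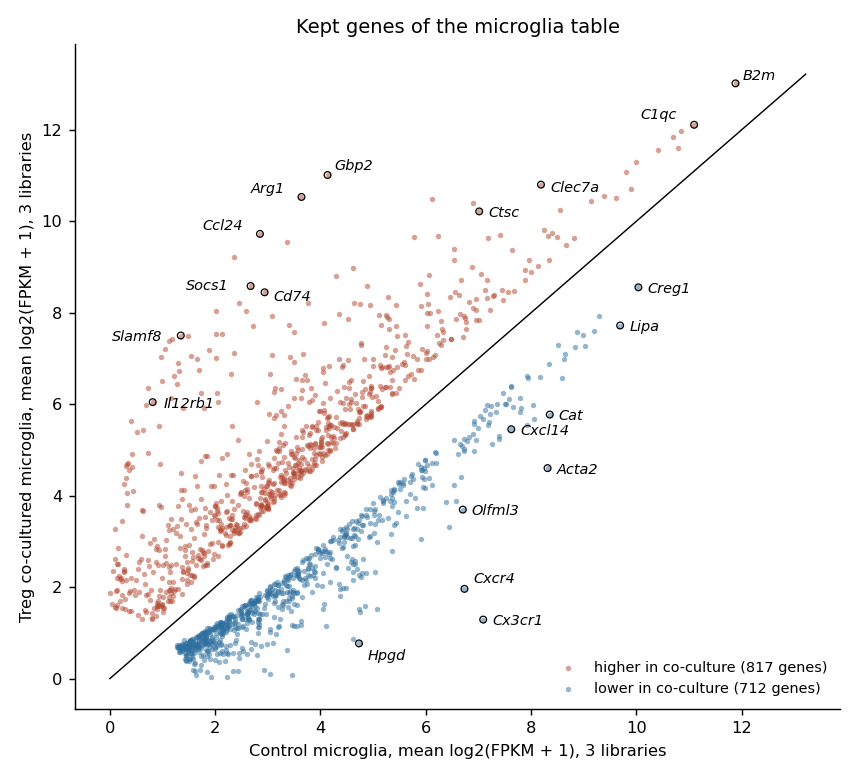
Mean log2(FPKM + 1) of the 3 co-culture libraries (vertical axis) against that of the 3 control libraries (horizontal axis) for the 1529 kept genes, one point a gene, with equality as the line. The 817 higher genes lie above the line and the 712 lower genes below it, with an empty band between them where the authors' selection removed genes, and the points farthest from the line include Arg1, Gbp2, Cx3cr1 and Cxcr4.

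Some libraries stood apart within their group. Co-culture library 3 was the highest of its group in 15 of 15 kept fibroblast and mural cell markers, at a median of 1.76 times the mean of co-culture libraries 1 and 2 (range 1.54 to 2.14), against 1.01 over all kept genes. The same library was the highest in 14 of 15 genes of the actin and contractility list (median 1.55) and in 15 of 20 genes of the matrix list (median 1.54). Control library 3 was the lowest control in 36 of 39 type I interferon genes, at a median of 0.715 times the mean of the other two controls, against 0.98 over all kept genes. Among the 30 largest rises that reached 100 FPKM, control library 1 was the highest control in 27 and control library 2 the lowest in 21. For these genes the controls held a median of 1.82%, 1.11% and 1.36% of the co-culture mean in libraries 1, 2 and 3. Arg1 was at 1.31%, 0.399% and 0.864% and Gbp2 at 1.3%, 0.491% and 0.80%, so the fold of such a gene depends on which control is used. Leaving out each library in turn left every one of the 712 lower calls, and 816 or 817 higher ones. What set these libraries apart was not tested.

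**Figure D2:**
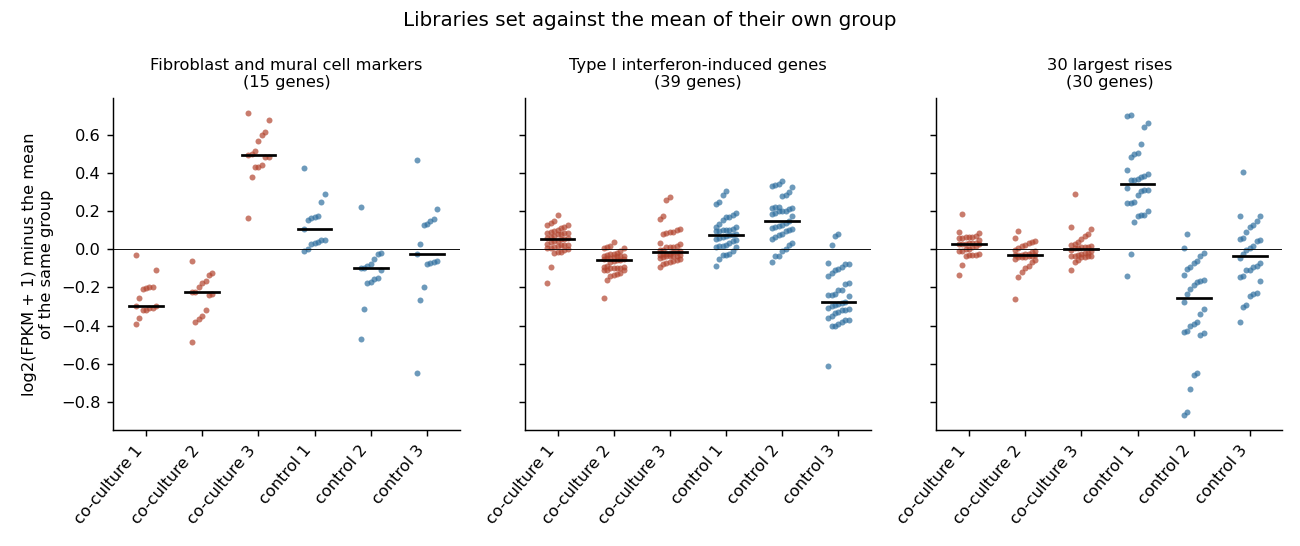
Each point is a gene's log2(FPKM + 1) in a library minus the mean of its own group, for 15 fibroblast and mural cell markers, 39 type I interferon genes and the 30 largest rises, with bars at the medians and co-culture libraries on the left of each panel. Co-culture library 3 lies above its group in the first panel, control library 3 below in the second, and control library 1 above in the third.

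The list of interferon gamma signalling and its transcription factors held 29 genes, of which 25 had a row, 25 were kept and 25 were higher in co-culture, with a median log2 fold change of 2.24 against 0.74 for all kept genes. Its receptor genes had no row and are not analysed here. Socs1 (NCBI gene 12703, chromosome 16, 10783808 to 10785536), the suppressor that binds and blocks the JAK kinases, had 374, 385 and 389.9 FPKM in the co-culture libraries and 6.76, 4.04 and 5.63 FPKM in the control libraries. The 3 co-culture values lie within a narrow band far above every control value. Its log2 fold change of 5.91 (SE 0.14) was the largest of the list. Socs3 (NCBI gene 12702, chromosome 11, 117966079 to 117970336), the suppressor best known for cytokines of the interleukin 6 family, had 142, 138 and 137 FPKM in co-culture and 4.89, 3.56 and 4.04 FPKM in control. Irf1 (NCBI gene 16362, chromosome 11, 53770014 to 53778374), a factor that carries the interferon gamma signal to later genes, had 515, 499 and 501 FPKM in co-culture and 26.7, 22.1 and 22.3 FPKM in control, a log2 fold change of 4.36 (SE 0.07). The kinase gene itself, Jak2, moved less, with a log2 fold change of 1.45.

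Stat2, which serves type I interferons, and Stat3, which serves interleukin 6 and interleukin 10, rose less, with log2 fold changes of 1.57 and 1.13. Batf2 and Batf3, partners of the AP-1 and IRF factors in myeloid cells, had log2 fold changes of 4.54 and 2.27. Cish, a suppressor induced through STAT5, rose 8.26-fold to a mean of 10.2 FPKM. Irf8, a factor that macrophages need for their identity, rose 2.52-fold. Irf5, a factor of inflammatory macrophages, had 181, 180.3 and 171 FPKM in co-culture and 99.4, 104 and 105 FPKM in control, but its log2 fold change of 0.78 turned to -0.18 with equal totals and -0.12 with quantile normalization.

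GAS elements read TTCNNNGAA on either strand. In windows of 300 bases, 250 before and 50 after a start of the gene, taken from RefSeq on GRCm38.p6, this motif occurred in 8.47% of 27025 promoters. The windows, the first listed for each gene, matched 1160 of the kept genes by gene ID. In 527 of these the start used for the window lies inside the outer bounds of the gene, by more than 250 bases in 236, so a window can miss other starts of a gene. The GAS motif occurred in 66 of 645 promoters of higher genes (10.2%) and in 22 of 515 promoters of lower genes (4.27%). Among genes with a log2 fold change of at least 4 it occurred in 11 of 35 promoters (31.4%). From 2 up to 4 it occurred in 15 of 104 (14.4%), from 1 up to 2 in 21 of 302 (6.95%), and from 0 up to 1 in 19 of 204 (9.31%). In the interferon gamma list it occurred in 7 of 20 promoters. The promoters of Irf1 and of Fcgr1, a receptor for immunoglobulin G known for its interferon gamma response, are shown because they hold the motif and belong to genes that rose; they were chosen after the values were seen. Each is given on the strand of the gene, with the motif in capitals, and lies outside the bounds of the gene (Irf1 chr11:53769879-53769977 on the + strand, Fcgr1 chr3:96294025-96294123 on the - strand; GRCm38.p6).
Irf1: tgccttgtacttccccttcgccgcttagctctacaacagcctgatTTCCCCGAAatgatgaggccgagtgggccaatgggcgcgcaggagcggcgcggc
Fcgr1: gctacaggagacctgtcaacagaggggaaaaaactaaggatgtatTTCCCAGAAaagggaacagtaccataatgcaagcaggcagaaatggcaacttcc

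The interferon-inducible GTPases, which attack vacuoles and membranes of intracellular pathogens, stood highest among the lists of 8 or more kept genes. Of 21 genes 17 had a row and 16 were kept, and 16 of 16 were higher, with a median log2 fold change of 5.32 and single values from 2.38 to 6.88. Their FPKM summed to 4737, 4735 and 4747 in the co-culture libraries and 134, 97.9 and 88.3 in the control libraries. Of the guanylate-binding proteins, Gbp2 reached 2023, 2109 and 2060.0 FPKM in co-culture against 26.8, 10.1 and 16.5 FPKM in control. Gbp5, which also promotes inflammasome assembly, had 274, 260.2 and 249 FPKM in co-culture and 4.91, 2.10 and 2.59 FPKM in control. In relative terms the controls spread more widely than the co-culture libraries, with control library 1 the highest in Gbp2, Gbp4 and Gbp5. Gbp10 was low in control, at 0.59, 0.06 and 0.42 FPKM, against 26.9, 27.3 and 33.7 FPKM in co-culture.

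Among the immunity-related GTPases, Tgtp1 had 183, 175 and 181 FPKM in co-culture and 2.93, 1.41 and 1.27 FPKM in control. Tgtp2, its near copy, had 129, 122 and 139.9 FPKM in co-culture and 1.32, 0.25 and 1.59 FPKM in control. Both rose about equally, with log2 fold changes of 6.02 and 6.07. Igtp had 205, 201 and 229 FPKM in co-culture and 10.7, 10.1 and 8.16 FPKM in control, and Irgm1, a regulator of the other members, rose 13.3-fold. The giant GTPase Gvin1 rose least, with 96.2, 84.8 and 80.3 FPKM in co-culture and 19.3, 19.2 and 10.8 FPKM in control. How reads were shared between the close copies of these families, and of the H2, Ifi200, Serpina3 and Slfn families, was not stated in the sources, so the value of a single copy is uncertain.

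The core of the ISRE, TTTC followed by 2 bases of any kind and TTTC again, on either strand, occurred in 3.49% of all 27025 promoter windows, in 73 of 645 promoters of higher genes (11.3%) and in 10 of 515 promoters of lower genes (1.94%). Among genes with a log2 fold change of at least 4 it occurred in 15 of 35 promoters (42.9%), from 2 up to 4 in 14 of 104 (13.5%), from 1 up to 2 in 33 of 302 (10.9%), and from 0 up to 1 in 11 of 204 (5.39%). All 9 of the 9 GTPase promoters in the RefSeq table held it, and 6 of the 9 held the GAS motif. Of promoters of type I interferon genes 13 of 31 held the ISRE core. The promoter of Gbp2 and others of the GTPases are also counted among genes with a log2 fold change of at least 4. These shares are therefore not independent. Motifs may overlap, and the GAS and ISRE core matches of 21 of the 139 promoters that held both shared bases. A match is a run of letters in a window and says nothing of binding. The promoters of Gbp2, Socs1, Cxcl10 and Isg15 show the motif alone and in arrays, and were chosen after the values were seen (Gbp2 chr3:142620559-142620658, Socs1 chr16:10785559-10785658, Cxcl10 chr5:92349048-92349139, Isg15 chr4:156200830-156200929; GRCm38.p6, Gbp2 on the + strand and the others on the - strand).
Gbp2: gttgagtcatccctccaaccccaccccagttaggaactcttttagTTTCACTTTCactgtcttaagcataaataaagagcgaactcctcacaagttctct
Socs1: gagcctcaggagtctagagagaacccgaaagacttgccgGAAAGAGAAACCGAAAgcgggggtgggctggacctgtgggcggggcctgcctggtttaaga
Cxcl10: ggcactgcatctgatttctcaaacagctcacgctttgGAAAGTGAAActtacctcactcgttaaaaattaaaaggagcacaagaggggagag
Isg15: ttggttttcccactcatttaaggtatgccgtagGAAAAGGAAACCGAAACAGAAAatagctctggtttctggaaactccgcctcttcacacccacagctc
The match of Gbp2 begins at position -59 from the start and that of Cxcl10 at -213, and the capitals of Socs1 and Isg15 hold 2 and 3 overlapping matches.

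Genes listed as induced by type I interferon rose as a block of smaller changes. Of 49 genes 39 had a row and were kept, and 39 of 39 were higher, with a median log2 fold change of 1.67, of which 29 were called with equal totals while 3 lay below 0. Isg15, a ubiquitin-like protein tag, had 103, 92.5 and 117 FPKM in co-culture and 15.9, 19.9 and 11.8 FPKM in control. Ifit2, which binds foreign RNA, had 99.4, 84.8 and 91.3 FPKM in co-culture and 14.2, 14.7 and 7.15 FPKM in control. Control library 3 was the lowest control in both, as in most of the list, and without it the median of the list was 1.49. Ifitm3, which restricts virus entry, reached the highest level of the list at 821, 782 and 895 FPKM in co-culture against 169.8, 176 and 159 FPKM in control. Ifi47 and Ifi205 led the list by size, with log2 fold changes of 4.99 and 4.51. Ifi47 lies in a run of neighbouring genes with Irgm1, Tgtp1 and Tgtp2, and can be counted with the immunity-related GTPases instead. Zbp1, a sensor of Z-form nucleic acid, rose 13.7-fold, and Slfn1, a brake on growth in T cells, rose 49.4-fold. Their log2 fold changes were 3.71 and 3.46. Usp18, which removes the ISG15 tag and damps type I signalling, had 12.6, 11.5 and 14.3 FPKM in co-culture and 7.51, 8.53 and 4.99 FPKM in control, and its log2 fold change of 0.81 turned to -0.06 with equal totals.

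**Figure D3:**
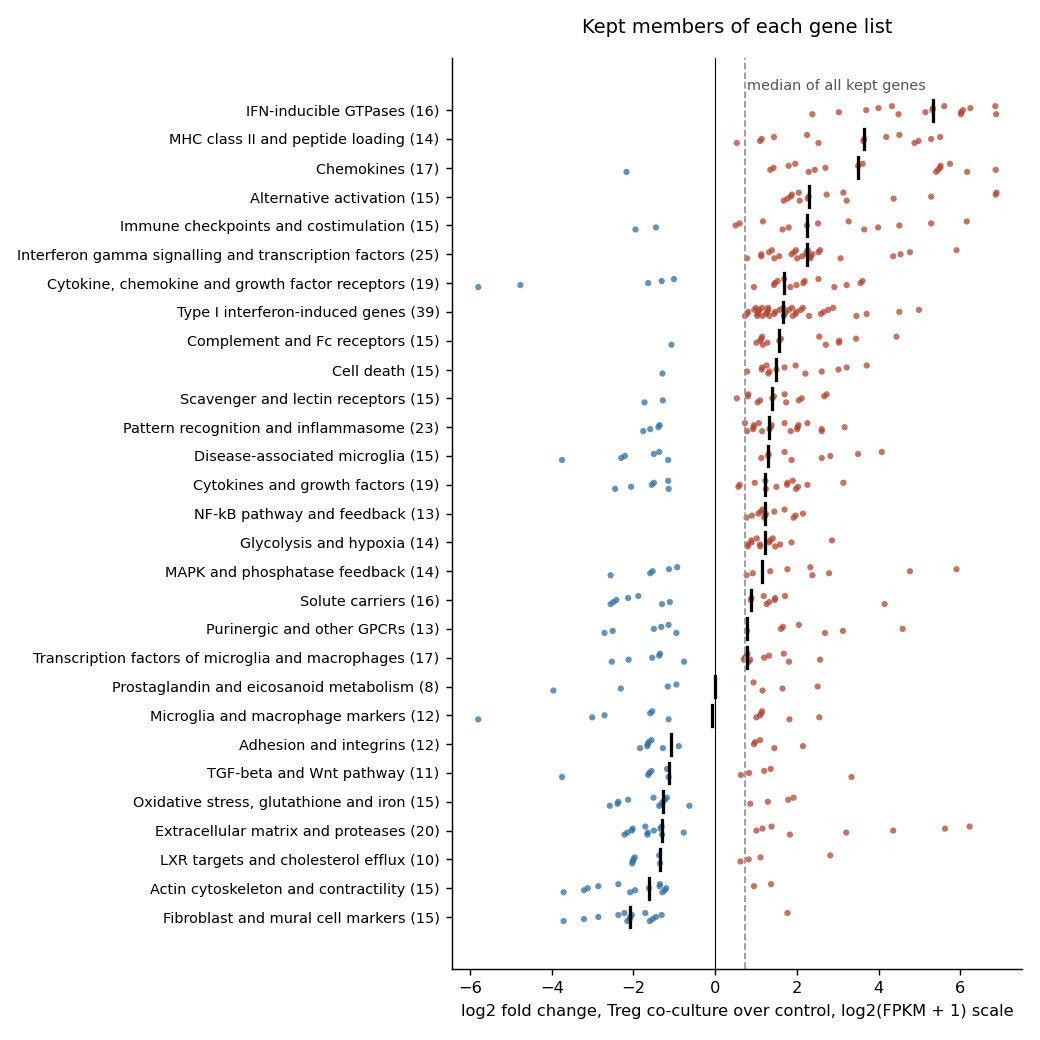
Log2 fold change, co-culture over control, of each kept member (points) of the lists with 8 or more kept genes, with the number of kept genes in brackets, a bar at each list's median and a dashed line at the median of all kept genes, 0.74. GTPases, the class II list with its 4 costimulation genes, and chemokines have the highest medians, and fibroblast markers and contractility genes the lowest, although Dcn, Cnn3 and Myh10 of these were higher.

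Class I genes of antigen presentation were counted in the interferon gamma list. B2m, the light chain of class I molecules, was the most abundant gene of the table with 8515, 8060.1 and 8285 FPKM in co-culture and 3652, 3613 and 4090.2 FPKM in control, and it made the largest gain in FPKM, although its log2 fold change of 1.13 became 0.00 with quantile normalization, which fixes the top rank. Tap1, the peptide transporter, had 211, 208 and 215 FPKM in co-culture and 36.2, 36 and 32.1 FPKM in control. Psme2, an activator subunit of the proteasome, and Psmb10, a subunit of the immunoproteasome, rose 5.28-fold and 5.16-fold. Nlrc5, the transactivator of class I genes, had a log2 fold change of 2.24.

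In the class II list 14 of 16 genes were kept and 14 were higher, with a median log2 fold change of 3.64, and 13 were called under each scaling. The list also holds Cd40, Cd86, Cd274 and Pdcd1lg2, which act in costimulation and are counted again among the checkpoint genes; the median of the other 10 was 3.08. Ciita (NCBI gene 12265, chromosome 16, 10480014 to 10531064), the master transactivator of class II genes, had 5.02, 5.82 and 4.63 FPKM in co-culture and 0.09, 0.05 and 0.05 FPKM in control, close to 0 in every control. Cd74, the invariant chain, had 328, 372 and 345 FPKM in co-culture and 9.02, 4.80 and 6.75 FPKM in control. H2-Ab1 and H2-Aa, the chains of the class II molecule H2-A, rose 55.7-fold and 95-fold to means of 69.9 and 41.1 FPKM. Their log2 fold changes were 4.98 and 4.88. Within the pathway the order was thus transactivator lowest, heterodimer chains higher and invariant chain highest in both groups. H2-DMb2, part of the peptide editor of class II, barely moved at a log2 fold change of 0.53, which turned to -0.08 with equal totals.

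Kept genes of the checkpoint and costimulation list, which are not all ligands, rose with few exceptions. Of 34 genes 15 were kept, 13 higher and 2 lower, with a median log2 fold change of 2.25. With equal totals 11 were called higher and 2 lower. Cd274 (NCBI gene 60533, chromosome 19, 29362107 to 29388095), the ligand PD-L1 that inhibits T cells through PD-1, had 466, 439 and 436 FPKM in co-culture and 21.2, 17.3 and 17.7 FPKM in control. Pdcd1lg2, the second ligand PD-L2, had 64.3, 65.2 and 57.2 FPKM in co-culture and 1.11, 0.24 and 0.6 FPKM in control. The inhibitory ligands stood beside activating molecules. Cd40, the receptor for CD40 ligand of T cells, rose 44.3-fold and Cd86, a ligand of CD28 and CTLA-4, 5.03-fold. Slamf8, a receptor of the SLAM family that restrains phagocyte oxidative burst, had 188, 177 and 176 FPKM in co-culture and 2.18, 0.86 and 1.78 FPKM in control, and Slamf7 rose 17.8-fold. Cd38, which consumes NAD, rose 11.1-fold. The 2 genes that fell were Vsir, the checkpoint VISTA, with 54, 55.8 and 52.4 FPKM in co-culture and 151, 154 and 143 FPKM in control, and Cd276, the ligand B7-H3, which was 5.24-fold lower.

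The alternative activation list moved in the same direction as the interferon lists. Of 28 genes 15 were kept and 15 of 15 were higher, also under both scalings, with a median log2 fold change of 2.29. Arg1, the arginase that splits arginine into ornithine and urea, had 1513, 1439 and 1486 FPKM in co-culture and 19.3, 5.90 and 12.8 FPKM in control, and its control values differ by more than 3-fold among themselves. Tgm2 (NCBI gene 21817, chromosome 2, 158116405 to 158146392), tissue transglutaminase, had 1402, 1510.4 and 1416 FPKM in co-culture and 79.3, 60.8 and 67.1 FPKM in control. Il4ra (NCBI gene 16190, chromosome 7, 125552271 to 125579474), the receptor chain shared by interleukin 4 and interleukin 13, had 283, 294 and 279 FPKM in co-culture and 31.5, 28.8 and 28.5 FPKM in control. Mrc1, the mannose receptor CD206, rose 6.73-fold to 287 FPKM. The lectin genes Clec10a and Mgl2 and the chemokine gene Ccl22 reached means of 3.47, 3.77 and 4.13 FPKM in co-culture against 0.233, 0.13 and 0.0433 FPKM in control. Retnla, a classical interleukin 4 target, had 2.53, 2.70 and 2.79 FPKM in co-culture and was listed at 0 in every control library, so no fold is given. The mean levels of the kept genes of this list in co-culture thus ran from 2.67 FPKM in Retnla to 1480.0 FPKM in Arg1.

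Enzymes and carriers of arginine rose together. Nos2 (NCBI gene 18126, chromosome 11, 78920787 to 78960226), inducible nitric oxide synthase and a product of classical activation, had 41.9, 38.3 and 47.6 FPKM in co-culture and 0.76, 0.47 and 0.44 FPKM in control. Arg1 exceeded Nos2 in every library of both groups. Slc7a2, the arginine importer CAT2, had 61.5, 61.3 and 56.5 FPKM in co-culture and 2.89, 2.44 and 2.02 FPKM in control. Ass1, which rebuilds arginine from citrulline, rose 3.63-fold. Acod1 (NCBI gene 16365, chromosome 14, 103047012 to 103056573), which makes itaconate from an intermediate of the tricarboxylic acid cycle, had 209.8, 167 and 179 FPKM in co-culture and 3.97, 3.11 and 3.13 FPKM in control. The list of arginine, polyamine and nitric oxide metabolism held 18 genes, of which 6 had a row and 5 were kept. All 5 were higher under each scaling, and they include Acod1, which is not an enzyme of arginine.

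**Figure D4:**
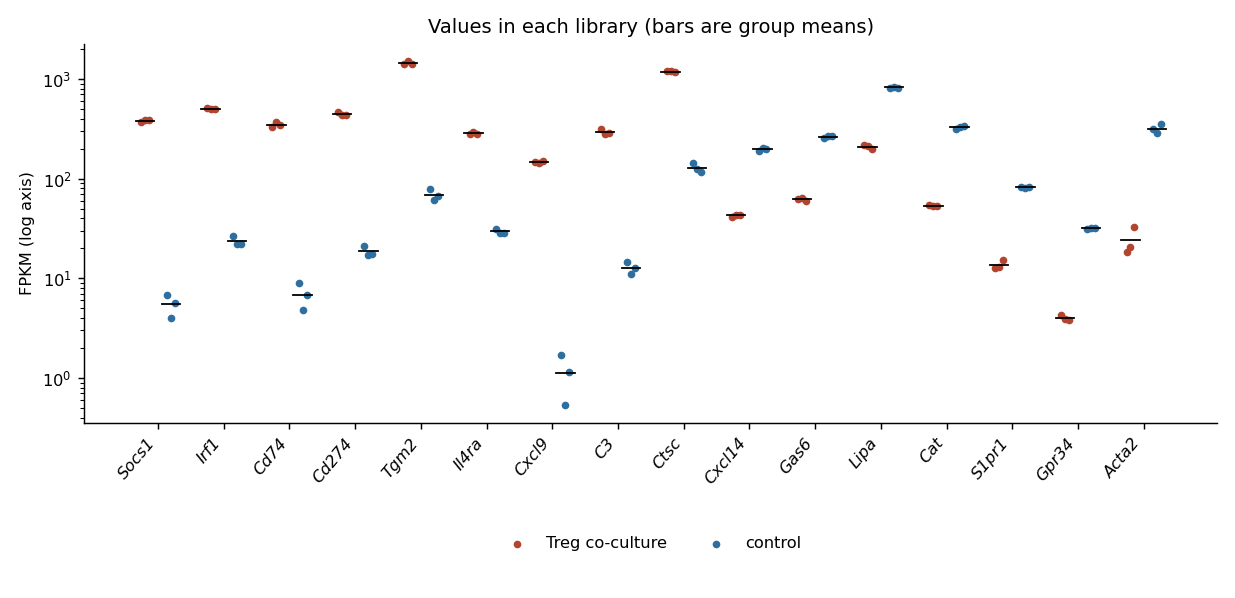
FPKM of 16 genes in each library on a log axis, with the 3 co-culture libraries (left of each pair) beside the 3 control libraries and bars at the group means. The first 9 genes, Socs1 to Ctsc, are higher and the last 7, Cxcl14 to Acta2, lower in co-culture, and in none do the groups overlap. The spread is widest in Cxcl9 and Cd74 among controls and in Acta2 in co-culture.

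Of 27 chemokine genes 17 were kept, 16 higher and 1 lower, with a median log2 fold change of 3.50. Cxcl9, which attracts T cells through CXCR3, had 147, 145 and 151 FPKM in co-culture and 1.69, 0.53 and 1.14 FPKM in control. Cxcl10, a second CXCR3 ligand, had 129, 109 and 161 FPKM in co-culture and 1.86, 1.87 and 2.00 FPKM in control. Both CXCR3 ligands thus passed 100 FPKM in every co-culture library and stayed near or under 2 FPKM in every control. Monocyte attractants rose to a similar extent, with 304, 270.1 and 308 FPKM of Ccl2 in co-culture and 5.49, 3.40 and 4.69 FPKM in control. Ccl7, Ccl8 and Ccl12, its neighbours and relatives, had log2 fold changes of 5.52, 5.46 and 5.41. Ccl24, which attracts eosinophils through CCR3, had 769, 879 and 893 FPKM in co-culture and 10.7, 2.95 and 7.13 FPKM in control, and Ccl6 was the most abundant of the list at 1396, 1296 and 1375 FPKM in co-culture against 129, 109 and 119 FPKM in control. Ccl5, an attractant of T cells and monocytes, rose 12.7-fold. The gene that fell was Cxcl14 (NCBI gene 57266, chromosome 13, 56288643 to 56296811), a chemokine made constitutively in many tissues, with 41.1, 43.6 and 43.6 FPKM in co-culture and 189, 202 and 198 FPKM in control.

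Cytokines and growth factors divided. Of 49 genes 19 were kept, 13 higher and 6 lower, and with equal totals 10 were called higher and 6 lower. Il1rn, the antagonist of the interleukin 1 receptor, had 79.2, 74.7 and 72.8 FPKM in co-culture and 7.95, 6.76 and 8.34 FPKM in control. Il1b, the agonist of that receptor, had 78.9, 59.1 and 58.6 FPKM in co-culture and 12.2, 12.7 and 13.4 FPKM in control. The antagonist rose 9.83-fold and the agonist 5.14-fold. Tnf, the first cytokine of many inflammatory cascades, rose 3.84-fold to a mean of 20.7 FPKM, while Il6 and Il27 stayed low at means of 3.70 and 5.15 FPKM in co-culture and 0.137 and 0.507 FPKM in control. In Il6 the co-culture libraries held 2.41, 2.98 and 5.70 FPKM, with library 3 the highest. The genes that fell encode growth factors for the most part. Igf1 (NCBI gene 16000, chromosome 10, 87858265 to 87937047), insulin-like growth factor 1, had 64.2, 63 and 61.7 FPKM in co-culture and 177, 181 and 183 FPKM in control. Gas6 (NCBI gene 14456, chromosome 8, 13465374 to 13494535), the bridge between dying cells and the receptors AXL and MERTK, had 62.9, 63.8 and 60.4 FPKM in co-culture and 254, 267 and 268 FPKM in control. Gdf15, a stress-induced factor, was 6.99-fold lower, and Csf1, the growth factor of microglia, 2.25-fold lower.

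On the receptor side 14 of 19 kept genes were higher and 5 lower, and 13 and 5 were called so with equal totals. Ccr1, a receptor for inflammatory chemokines, had 298, 294 and 291 FPKM in co-culture and 26.1, 22.7 and 23.2 FPKM in control. Receptor chains that rose included Il21r, 8.12-fold, the common gamma chain gene Il2rg, 5.96-fold, and Csf2rb, the shared chain of the receptors for GM-CSF, interleukin 3 and interleukin 5, 4.52-fold. Il12rb1 (NCBI gene 16161, chromosome 8, 70808360 to 70823542), a receptor chain for interleukin 12 and interleukin 23 that was outside the lists, had 65.5, 64.1 and 65.6 FPKM in co-culture and 1.11, 0.46 and 0.76 FPKM in control. Tgfbr1, the signalling receptor for TGF-beta, fell to 9.84, 9.43 and 9.12 FPKM in co-culture, against 32.1, 33 and 29.8 FPKM in control. The falls of Cx3cr1 and Cxcr4, receptors for fractalkine and CXCL12, were larger, with 1.26, 1.36 and 1.74 and 3.15, 3.02 and 2.54 FPKM in co-culture and 137, 144 and 126 and 99.6, 105 and 112 FPKM in control. Chemokine receptors therefore changed in both directions, Ccr1 upward and Cx3cr1 and Cxcr4 downward.

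Among pattern receptors and inflammasome genes 19 of 23 kept genes were higher and 4 lower, and with equal totals 15 were called higher and 4 lower. Clec7a (NCBI gene 56644, chromosome 6, 129461591 to 129472785), the beta-glucan receptor dectin-1 and a marker of reactive microglia, had 1887, 1758 and 1710.0 FPKM in co-culture and 294, 285 and 294 FPKM in control. Clec4d, a related C-type lectin, went the other way, with 167, 142 and 149.9 FPKM in co-culture and 511, 515 and 533 FPKM in control. Tlr12, a sensor of profilin from protozoa, had 8.60, 8.85 and 8.59 FPKM in co-culture and 0.12, 0.07 and 0.04 FPKM in control. Cd14, the coreceptor of TLR4 for lipopolysaccharide, had 155, 138 and 161 FPKM in co-culture and 458, 440.5 and 474 FPKM in control, and Tlr7 and Naip5, sensors of single-stranded RNA and flagellin, were 2.71-fold and 2.94-fold lower. Genes of lytic death rose: Casp4, the sensor caspase for intracellular lipopolysaccharide, 6.76-fold, Mlkl, the executor of necroptosis, 11.4-fold and Ripk3, its kinase, 5.15-fold. In the cell death list 14 of 15 kept genes were higher, and the exception was Bbc3, the proapoptotic protein PUMA, which was 2.64-fold lower. All 13 kept genes of the NF-kB list were higher, 9 of them called with equal totals while 2 lay below 0. Icam1, the adhesion ligand of leukocyte integrins, rose 4.56-fold, while the calls of Nfkbia, the inhibitor of NF-kB, and Ptgs2, cyclooxygenase 2, ended under both scalings.

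Complement and Fc receptor genes were among the largest gains in FPKM. C3 (NCBI gene 12266, chromosome 17, 57203967 to 57228136), the central complement protein, had 314, 281 and 289.9 FPKM in co-culture and 14.4, 10.9 and 12.7 FPKM in control. Cfb, its partner in the alternative pathway, rose 9.86-fold. C1qb, a chain of the first component, was abundant in both groups at 3624, 3712 and 3619 FPKM in co-culture and 1639, 1632 and 1678 FPKM in control, and the call of its partner C1qc ended under both scalings. Of the receptors for immunoglobulin G, Fcgr4 had 818, 855 and 790.1 FPKM in co-culture and 78.9, 74.5 and 70.1 FPKM in control, and Fcgr1 and Fcgr3 rose 5.97-fold and 2.43-fold. C5ar2, a receptor for C5a, was the exception at a log2 fold change of -1.07, so 14 of 15 kept genes of the list were higher and 1 lower, and 12 and 1 were called so with equal totals. Of scavenger and lectin receptors 13 of 15 kept genes were higher (9 called higher and 3 lower with equal totals). The largest log2 fold changes were in Mrc1 (2.73), Cd300lf (2.67), an inhibitory receptor of myeloid cells, Treml2 (2.12) and Msr1 (2.05), the scavenger receptor SR-A. Colec12 and Siglecg were 3.37-fold and 8.04-fold lower, with log2 fold changes of -1.73 and -1.28.

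Genes of lipid handling did not move as a block. No gene of the 27 of the cholesterol synthesis list had a row, and they are not analysed here. Of 24 genes of the list of LXR targets and cholesterol efflux 10 were kept, 4 higher and 6 lower, with a median log2 fold change of -1.36, and with equal totals 2 were called higher and 7 lower. Ch25h, which makes 25-hydroxycholesterol and is an interferon target, had 21.7, 19.4 and 21 FPKM in co-culture and 1.70, 2.03 and 2.52 FPKM in control. Abcg1, a cholesterol exporter, had 26.2, 28.5 and 25.8 FPKM in co-culture and 12, 12.4 and 11.4 FPKM in control. Nr1h3, the receptor LXR alpha, and Npc2, the sterol carrier of the lysosome, had log2 fold changes of 0.62 and 0.82, which turned to -0.15 and -0.14 with equal totals, and that of Npc2 to -0.27 with quantile normalization.

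In the list of fatty acid uptake, storage and oxidation 5 of 38 genes were kept, 2 higher and 3 lower (1 and 3 called under equal totals). Hilpda, a lipid droplet protein induced by hypoxia, and Lipe, hormone-sensitive lipase, had log2 fold changes of 1.24 and 0.73, and that of Lipe turned to -0.14 with equal totals. Lipa (NCBI gene 16889, chromosome 19, 34492316 to 34527474), the acid lipase that frees cholesterol from its esters in lysosomes, had 219, 212 and 199.7 FPKM in co-culture and 822, 837 and 820.3 FPKM in control, the second largest loss in FPKM of the table. Lpl (NCBI gene 16956, chromosome 8, 68880555 to 68906932), lipoprotein lipase, had 250.0, 263 and 219 FPKM in co-culture and 627, 668 and 596 FPKM in control. Mylip, the ligase that degrades the LDL receptor, was 4.42-fold lower, and Abca9, an ABC transporter of macrophages, 7.09-fold lower. Apoc1, an apolipoprotein, and Fabp4, a fatty acid carrier, were 2.86-fold and 2.59-fold lower. Abhd12 (NCBI gene 76192, chromosome 2, 150832493 to 150904779), which hydrolyses lysophosphatidylserine, had 191, 194 and 191 FPKM in co-culture and 563, 585 and 601 FPKM in control. Creg1, a glycoprotein of endosomes and lysosomes that made the largest loss in FPKM, had 375, 383 and 368 FPKM in co-culture and 1009, 1065 and 1082 FPKM in control. Of 5 kept genes of the lysosome and cathepsin list 3 were higher and 2 lower. Ctsc (NCBI gene 13032, chromosome 7, 88278024 to 88315861), the protease that activates granzymes, had 1203, 1198 and 1165 FPKM in co-culture and 145, 126 and 116 FPKM in control, and Cst7, cystatin F, its inhibitor, rose 18.5-fold. Ctss, the cathepsin that trims the invariant chain, rose 2.20-fold as deposited, a call that ended with quantile normalization.

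All 14 kept genes of the glycolysis and hypoxia list were higher on the deposited values, against 9 called higher and 1 called lower with equal totals. Hk3, a hexokinase of myeloid cells, had 679, 669 and 666 FPKM in co-culture and 94, 93 and 88.1 FPKM in control. Hif1a, the hypoxia factor that also serves activated macrophages, and Ldha, lactate dehydrogenase A, rose 3.72-fold and 2.56-fold, and the glucose transporter gene Slc2a1 2.54-fold. Gapdh and Pkm, enzymes of the later steps of glycolysis, had log2 fold changes of 0.80 and 0.89, which turned to -0.16 and -0.07 with equal totals and -0.20 and -0.16 with quantile normalization. Since Gapdh often serves as a reference gene, its own values are given: 3028, 3165 and 3147 FPKM in co-culture and 1711, 1742 and 1900.2 FPKM in control. Solute carriers divided into 9 higher and 7 lower, near the 53.4% higher over all kept genes, and into 7 and 7 with equal totals. Slc46a3 and Slco2b1, carriers of the endolysosome and of organic anions, were 7.12-fold and 7.20-fold lower.

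Kept genes of oxidative stress, glutathione and iron fell for the most part. Of 47 genes of that list 16 had a row and 15 were kept. Of these, 11 were lower and 4 higher, with a median log2 fold change of -1.28. With equal totals 11 were called lower and 2 higher. Cat (NCBI gene 12359, chromosome 2, 103453904 to 103485153), the catalase that removes hydrogen peroxide, had 54.7, 53.6 and 52.8 FPKM in co-culture and 314, 327 and 339 FPKM in control, with all libraries of a group close together. Gstm1, a glutathione transferase, had 45.5, 45.7 and 46.5 FPKM in co-culture and 230.2, 237 and 259 FPKM in control. Slc40a1 (NCBI gene 53945, chromosome 1, 45908070 to 45926532), ferroportin, the exporter of iron, had 35.8, 33.1 and 32.6 FPKM in co-culture and 156, 151 and 148 FPKM in control. Gclm, a subunit of the first enzyme of glutathione synthesis, and Srxn1, sulfiredoxin, both known targets of the factor NRF2, were 2.45-fold and 2.91-fold lower, and Mgst2 and Gpx3 8.59-fold and 2.49-fold. Of the 4 higher genes Sod2, the mitochondrial superoxide dismutase, rose 3.90-fold, while Mt2, a metallothionein, had 121, 139.5 and 189 FPKM in co-culture and 62.5, 55.2 and 62.3 FPKM in control, a call that ended under both scalings.

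Enzymes of eicosanoids moved at both ends of the pathway. Pla2g4a, the phospholipase that frees arachidonic acid, had 73, 67.7 and 67.7 FPKM in co-culture and 11.3, 11.4 and 11.5 FPKM in control. Hpgd, which inactivates prostaglandins, had 0.58, 0.8 and 0.74 FPKM in co-culture and 24.4, 26.1 and 26.3 FPKM in control. The list as a whole had 4 higher and 4 lower among 8 kept genes, and with equal totals 2 were called higher and 4 lower.

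Among G protein-coupled receptors 7 of 13 kept genes were higher and 6 lower, near the 53.4% higher over all kept genes. With equal totals 6 were called higher and 6 lower, against 42.2% higher over all calls. Hcar2 (NCBI gene 80885, chromosome 5, 123863570 to 123865516), the receptor for hydroxybutyrate and niacin, had 46.7, 45.1 and 43.1 FPKM in co-culture and 1.08, 0.71 and 0.96 FPKM in control. P2ry14, the receptor for UDP-glucose, and the receptor gene Gpr35 rose 13.7-fold and 8.04-fold. Gpr34 (NCBI gene 23890, chromosome X, 13622650 to 13640859), a receptor for lysophosphatidylserine typical of microglia, had 4.31, 3.94 and 3.81 FPKM in co-culture and 31.1, 32.1 and 32.3 FPKM in control. S1pr1 (NCBI gene 13609, chromosome 3, 115710433 to 115715055), a receptor for sphingosine 1-phosphate, had 12.7, 13.1 and 15.2 FPKM in co-culture and 82.9, 81.2 and 82.2 FPKM in control.

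The label of primary microglia was checked against 28 microglia and macrophage markers, of which 12 were kept, 6 higher and 6 lower (4 and 6 called with equal totals), with a median log2 fold change of -0.07. The kept markers summed to 11807, 11984 and 11995 FPKM in the co-culture libraries and 6116, 6191 and 6281 FPKM in the control libraries, so macrophage markers were abundant in both groups, and most of this sum was C1q. The 16 other markers, P2ry12, Csf1r and Trem2 among them, have no row and are not analysed here. Aif1, the protein IBA1, had 114, 107 and 117 FPKM in co-culture and 30.5, 30.9 and 31.9 FPKM in control. Olfml3 (NCBI gene 99543, chromosome 3, 103735394 to 103738001), a secreted protein enriched in microglia, had 11.9, 11.7 and 12.2 FPKM in co-culture and 101, 103 and 106 FPKM in control. Tmem119, a marker that separates microglia from other macrophages, was low in both groups, at 3.77, 4.27 and 3.72 FPKM in co-culture and 9.86, 9.12 and 10.6 FPKM in control. Itgam, the integrin CD11b, had a log2 fold change of 1.10, a call that ended with equal totals. In bulk RNA fewer cells of a type and less RNA per cell cannot be told apart.

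Of 15 kept genes of the disease-associated microglia signature 9 were higher and 6 lower, also with equal totals. Cst7 and Ccl6 rose most on the log2 scale, by 4.08 and 3.50, and Lgals3, galectin 3, had 2516, 2534 and 2509.8 FPKM in co-culture and 966, 1012 and 1095 FPKM in control. Dkk2, a Wnt modulator of that signature, had 0.8, 0.86 and 0.83 FPKM in co-culture and 24, 23.6 and 23.4 FPKM in control, and Igf1 and Lpl of the same signature were among the falls named above. Mfge8, which bridges phosphatidylserine to integrins during phagocytosis, had 136, 137 and 136 FPKM in co-culture and 391, 399 and 405 FPKM in control, and Itgb5, a chain of an integrin that binds it, was 2.97-fold lower. Mfge8 was outside the lists. Of 29 genes of the list of synapse, myelin and phagocytosis receptors 4 were kept, 2 higher and 2 lower: Cd47, which restrains phagocytosis, and Itgam had log2 fold changes of 1.10 and 1.10, of which the call of Itgam ended with equal totals, and Itgb5 and Gas6 of -1.56 and -2.06.

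Of transcription factors of microglia and macrophages 11 of 17 kept genes were higher and 6 lower, against 53.4% higher over all kept genes. With equal totals 5 were called higher and 7 lower, near the 42.2% higher over all calls. Tfec, a relative of TFEB in macrophages, had 65.9, 59.1 and 58.6 FPKM in co-culture and 9.38, 9.26 and 9.78 FPKM in control, and Nfil3 rose 3.70-fold. Mef2c, a factor of resting microglia, had 7.54, 7.72 and 7.60 FPKM in co-culture and 25.4, 24.2 and 22.8 FPKM in control. Nr4a1, an orphan nuclear receptor, Bhlhe41, a transcriptional repressor, and Cebpa, a myeloid factor, were 8.17-fold, 5.08-fold and 2.57-fold lower. In the TGF-beta and Wnt list 5 of 11 kept genes were higher and 6 lower, and with equal totals 3 were called higher and 6 lower. Tgfbi, a matrix protein induced by TGF-beta, had 237, 238 and 223 FPKM in co-culture and 24.5, 19.7 and 22.2 FPKM in control, while the decoy receptor gene Bambi was 3.33-fold lower.

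The matrix list held 8 higher and 12 lower among 20 kept genes, 6 and 12 of them called with equal totals. Mmp13, a collagenase, had 109.6, 97.8 and 95.3 FPKM in co-culture and 4.73, 3.74 and 3.45 FPKM in control, and Mmp25, a membrane-bound matrix protease, rose 55.4-fold, while the gelatinase gene Mmp2 and Adam19 had log2 fold changes of -1.31 and -1.34. Serpina3g and Serpina3f, serine protease inhibitors with close copies, had log2 fold changes of 6.23 and 5.63. Col1a1, a chain of type I collagen, had 28.5, 28.7 and 61.2 FPKM in co-culture and 174, 159 and 171 FPKM in control. Co-culture library 3 held the highest value of its group, and still lay below every control. Col4a1 and Sparc, a basement membrane collagen and a matrix glycoprotein, were 4.83-fold and 2.79-fold lower. Without co-culture library 3 the median of the list was -1.50, against -1.31 with it.

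The genes of smooth muscle contraction had a lower median than the matrix list: 13 of 15 kept genes of the actin and contractility list were lower, also with equal totals, with a median log2 fold change of -1.62. Acta2, smooth muscle actin, had 18.5, 20.6 and 33 FPKM in co-culture and 315, 286 and 354 FPKM in control. Actg2, a second smooth muscle actin, had 7.75, 6.37 and 14.6 FPKM in co-culture and 90.4, 85.5 and 82.6 FPKM in control. Cnn1, calponin, had 1.49, 1.45 and 2.86 FPKM in co-culture and 27.4, 20.3 and 29.6 FPKM in control. Tagln and Myl9, transgelin and a myosin light chain, were 5.09-fold and 7.86-fold lower, and Vcl and Cnn2, vinculin and calponin 2, 2.73-fold and 2.59-fold. The exceptions were Myh10, a nonmuscle myosin whose call ended with equal totals, and Cnn3, an acidic calponin, which had 100.1, 109.8 and 128 FPKM in co-culture and 46, 39.6 and 42.9 FPKM in control. In every gene named here except Myh10 co-culture library 3 was the highest of its group.

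These genes mark fibroblasts and mural cells, and their levels moved with the markers of those cells. Of 21 such markers 16 had a row and 15 were kept, 14 lower and 1 higher, none of them listed at 0 in any library, and the list shares 5 genes with the contractility list and 4 with the matrix list. The kept markers summed to 190, 195 and 358 FPKM in the co-culture libraries and 1229, 1071 and 1256 FPKM in the control libraries. Without co-culture library 3 the median log2 fold change of the list was -2.29, against -2.08 with it, and the contractility list stood at -1.74, against -1.62. The one marker that was higher was Dcn, decorin, with 22.9, 26 and 47.2 FPKM in co-culture and 11.4, 9.73 and 4.88 FPKM in control, a call that ended with equal totals. Thy1, a marker of fibroblasts and of T cells, had 10.1, 7.50 and 17 FPKM in co-culture and 31.6, 22.5 and 44 FPKM in control. Lcn2 and Ptx3, acute-phase genes, had 10.4, 9.40 and 21.1 and 11.9, 11.7 and 26.8 FPKM in co-culture and 3.43, 3.26 and 2.38 and 5.06, 3.65 and 5.29 FPKM in control, also with library 3 the highest of co-culture, and the call of Ptx3 ended with equal totals. Vcam1, Igfbp5 and Mgp showed the same order, with library 3 the highest in co-culture. The part of such cells in the falls of contractile and matrix genes was not tested.

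CArG boxes, the sites of serum response factor in contractile genes, occurred in 425 of 27025 promoter windows (1.57%), in 14 of 515 promoters of lower genes (2.72%), in 5 of 645 of higher genes (0.775%) and in 3 of 12 of the contractility list. This motif and the examples were chosen after the values were seen. The 3 promoters of the contractility list are given on the strand of the gene with the box in capitals (Myl9 chr2:156775258-156775357, Vcl chr14:20929148-20929225, Cnn2 chr10:79988499-79988598; GRCm38.p6, all on the + strand).
Myl9: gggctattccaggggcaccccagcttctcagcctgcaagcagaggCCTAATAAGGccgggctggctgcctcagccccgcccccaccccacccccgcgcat
Vcl: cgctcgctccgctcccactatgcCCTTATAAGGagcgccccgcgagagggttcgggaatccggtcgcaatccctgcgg
Cnn2: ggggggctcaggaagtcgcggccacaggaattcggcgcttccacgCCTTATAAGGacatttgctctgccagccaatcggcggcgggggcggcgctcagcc
Vcl and Cnn2 share the letters of the box, and Myl9 has another variant. NF-kB sites occurred in 4.35% of all windows, in 8.68% of those of higher genes, in 5.44% of those of lower genes and in 5 of 10 of the NF-kB list.

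Markers of other cells were few in the table. Of 27 T cell markers 6 had a row, and Foxp3 and Cd3e were among those that are not analysed here. The T cell rows summed to 3.31, 3.13 and 3.27 FPKM in co-culture and 13.2, 12.8 and 12.6 FPKM in control. The higher sum in control came from Cd28, the T cell costimulatory receptor, with 1.50, 1.36 and 1.33 FPKM in co-culture and 12, 11.5 and 10.9 FPKM in control. Below the filter, Lck, a kinase of T cells, had 0.54, 0.47 and 0.66 FPKM in co-culture and 0.17, 0.19 and 0.38 FPKM in control, Ikzf2, the factor Helios, had 1.18, 1.24 and 1.14 FPKM in co-culture and 0.48, 0.41 and 0.42 FPKM in control, and Skap1 was listed at 0 in all co-culture libraries. The T cell rows therefore held both directions at low levels. Flt1 and Pecam1, which endothelium and some macrophages express, rose 3.19-fold and 4.19-fold, and 3 of 11 neuron markers had a row, none above the filter. Cnp and Mbp of the oligodendrocyte list changed by 0.90 and -1.26 on the log2 scale, and that of Cnp turned to -0.01 with equal totals. Ttr, a carrier protein of the choroid plexus, had 0.18, 0.06 and 0 FPKM in co-culture and 44.3, 4.77 and 1.11 FPKM in control, and its log2 fold change of -2.93 was -1.70 without control library 1 and -3.91 without control library 3.

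Among genes outside the lists the largest rise was in AA467197, known also as Nmes1, with 732, 704 and 809.6 FPKM in co-culture and 11.8, 6.65 and 10.2 FPKM in control. Inafm1, a membrane protein gene, was listed at 0 in co-culture libraries 1 and 2 and at 0.17 FPKM in library 3, against 8.96, 9.72 and 11.4 FPKM in control. Prss23, a secreted serine protease, and Mamdc2 were 14.7-fold and 13.8-fold lower, and Stap1, an adaptor of myeloid receptors, 17.3-fold. Wars, the tryptophan tRNA synthetase that interferon gamma induces, had 127, 126 and 127 FPKM in co-culture and 20.7, 19.3 and 18.3 FPKM in control. Ccnd1, cyclin D1, rose 3.38-fold, and 4 genes in all of 53 in the cell cycle list were kept, 2 higher and 2 lower. Gpr137b, a lysosomal membrane protein, had 197, 193 and 183 FPKM in co-culture and 464, 488 and 459 FPKM in control, and Glipr1 was 4.08-fold lower.

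A minority of the kept genes lay side by side in the genome. Runs of at least 4 kept genes with gaps of at most 100 kb numbered 27 and held 134 of 1523 genes with coordinates. Of these 134 genes, 113 were higher and 21 lower, against 53.4% higher over all kept genes. In 18 runs all genes were higher, in 1 all were lower and 8 were mixed. How many such runs other genes of the genome would give was not tested. The run with the most genes held 14 from Daxx to H2-Eb1 on chromosome 17 (33909404 to 34316674, GRCm38.p6), the class II region and its neighbours, all higher with log2 fold changes from 0.53 to 4.98, of which 1 lay below 0 with equal totals and the call of Daxx ended. On chromosome 1 (173468485 to 174031755) 9 Ifi200 genes were higher, from 1.88 to 4.51. The chemokine run on chromosome 11 (82035577 to 82116799) had the narrowest range among those shown, with Ccl2, Ccl7, Ccl12 and Ccl8 between 5.41 and 5.75. Guanylate-binding genes formed 2 runs, on chromosome 3 (142496934 to 142638008) with 4 genes and on chromosome 5 (105012513 to 105295871) with 5 genes. Jak2, Cd274, Pdcd1lg2 and Ric1 lay together on chromosome 19 (29251803 to 29605921), with the ligand genes higher by more than Jak2 and Ric1. Neighbours are often copies of each other, and genes of a run are not independent.

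**Figure D5:**
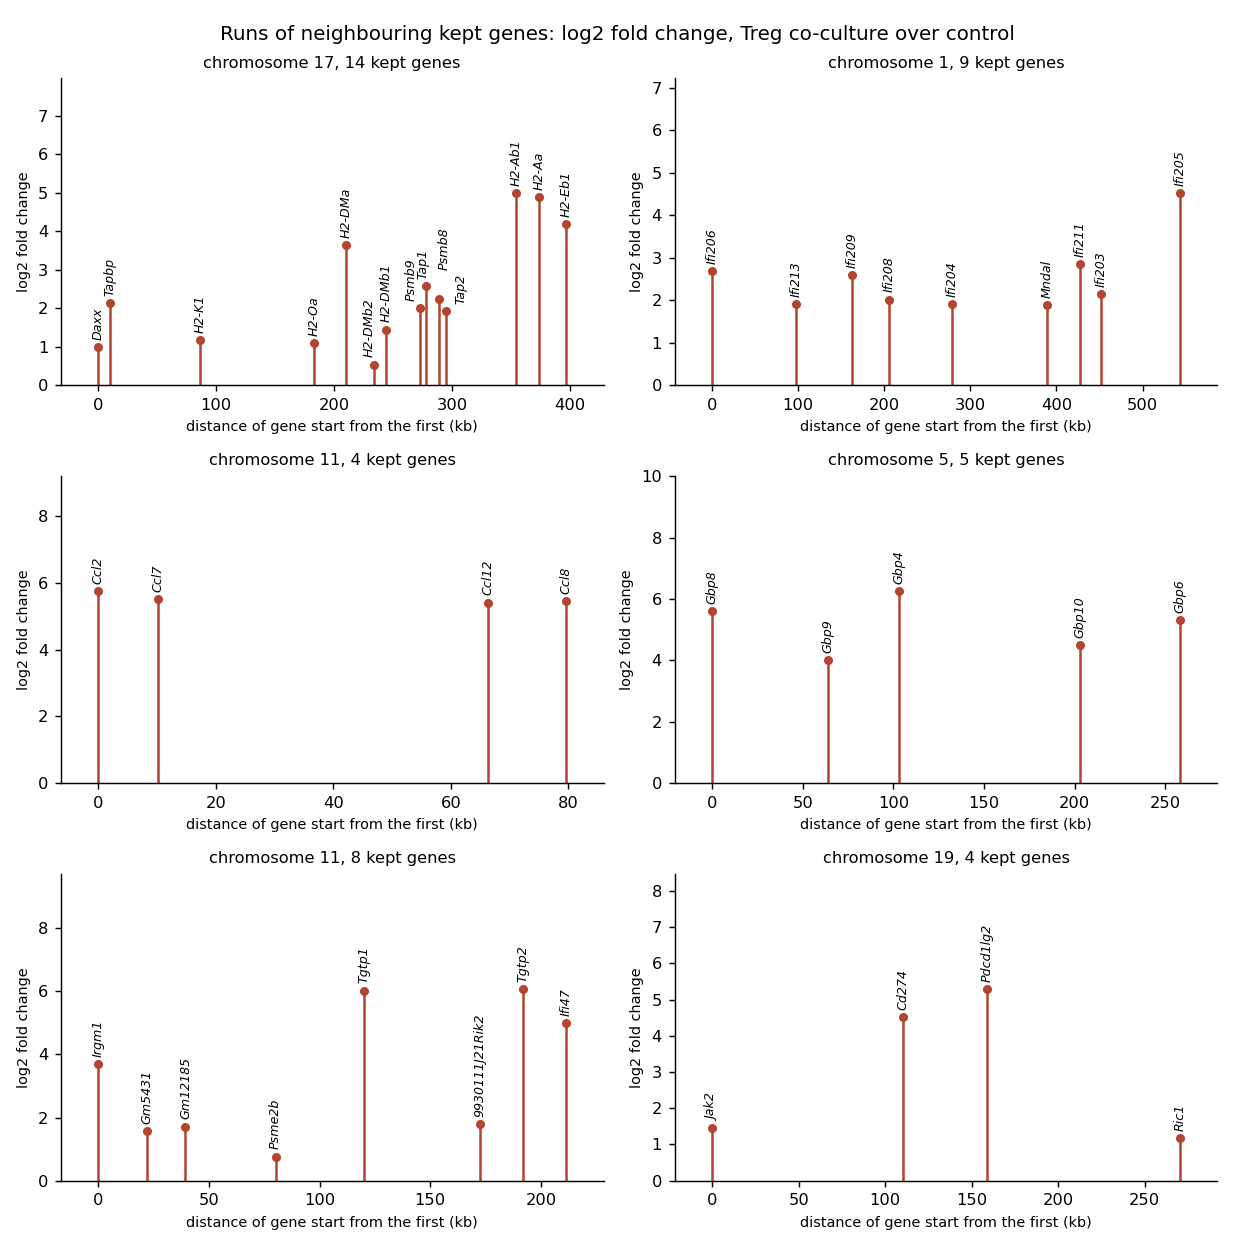
Log2 fold change, co-culture over control, of each kept gene in 6 runs of neighbouring genes, by the distance of its start from that of the first gene in kb. All genes shown are higher in co-culture with the values as deposited, of which 2 lay below 0 with equal totals; in the class II run on chromosome 17 H2-Ab1, H2-Aa and H2-Eb1 are highest, and the 4 chemokine genes of chromosome 11 reach nearly equal values.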

How the data were processed

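The 6 microglia libraries of messenger RNA were grouped by their titles. The FPKM values were deposited by the authors with 2 decimals, per the file headers, and Bowtie2, RSEM 1.3.1, DESeq2 1.4.5 and the build GRCm38.p6 are named without roles in the submitters' processing notes. The authors' deposited table also holds a log2 fold change and a Q value (an adjusted p-value) per gene, used here only to describe the selection of rows. Its header names the numerator with a word found in no label, and the sign matched co-culture over control in all 2186 rows. Sequencing depth is unknown. FPKM sums over the selected rows (115884 to 117408 in co-culture, 59529 to 61068 in control) are not library sizes. No pair of libraries were copies, since at most 3.39% of rows had equal values above 0 in a pair.

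Genes with a mean of at least 1 FPKM were tested on log2(FPKM + 1) with limma 3.58.1 (lmFit, eBayes with a mean-variance trend) in R 4.3.3, with Benjamini-Hochberg adjustment over 1529 genes and a threshold of 0.05. The code of the fit was also run on simulated data in which most genes were unchanged. That setting differs from this table of selected genes and says nothing of the calls made here. An exact two-sided permutation test of 3 against 3 libraries cannot go below 0.10 and was not used. Tables and figures used Python 3.11.15, pandas 2.3.3, numpy 2.4.6 and matplotlib 3.10.9. Coordinates and promoter sequences came from RefSeq tables of GRCm38.p6, with 1523 of the kept genes matched by gene ID.

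The genes, the 46 gene lists and the tests were chosen with earlier results of these data known. Genes were named by rule: per list the 3 largest changes, the 2 highest levels and up to 2 against the list's direction, and over all genes the 12 largest rises, falls, gains and losses and the 6 widest ranges within each group; some were left out for length, and a few are not reported here. Genes named for their role outside this rule were chosen after their values were seen. Alternatives were another pseudocount (0.1), no filter or a mean of at least 5 FPKM, equal totals, quantile normalization, no trend, a replicate block and leaving out each library.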

Additional observations from a re-analysis of the deposited data

How the results depend on the processing

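The counts of 817 higher and 712 lower genes kept within 1.5 times under another pseudocount (0.1), without the mean-variance trend and with quantile normalization (722 and 702). With equal totals, which shifted single genes by a median of -0.84, the higher count was 533. Why the totals over the table differ between the groups was not tested. The lower count was 1150 without a filter and 341 with a mean of at least 5 FPKM, settings that test more and fewer genes. Leaving out 1 library at a time gave 816 to 817 higher and 712 to 712 lower genes. Whether replicate numbers pair the libraries cannot be settled from these values. Deviations of same-numbered libraries from their group means correlated at -0.04, 0.15 and 0.17. Co-culture libraries 2 and 3 correlated best with the control library of the same number, and co-culture library 1 with control library 2. Deviations within a group are tied to each other, so these correlations are not independent. The replicate block gave 817 higher and 712 lower genes. Of 213 named genes, log2 fold changes changed sign with equal totals in Irf5 (-0.18), Usp18 (-0.06), H2-DMb2 (-0.08), Pkm (-0.07), Gapdh (-0.16), Npc2 (-0.14), Lipe (-0.14), Nr1h3 (-0.15) and Cnp (-0.01). With quantile normalization, which shifted single genes by a median of -0.26, they changed sign in Irf5 (-0.12), Pkm (-0.16), Gapdh (-0.20) and Npc2 (-0.27). What lies behind the difference between the groups that these scalings remove was not tested. Calls ended without a change of sign in 9 named genes with equal totals and in 6 with quantile normalization, and in none of them under the other alternatives that kept the gene. Both scalings assume equal totals or distributions over rows selected for a change. Sequencing depth is unknown, so no limit for low values can be set.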
